A study of Rattus norvegicus with 30 samples.

Results

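Interleukins are secreted signals between immune and tissue cells, and the genes described here are those of the interleukins, of the receptor chains that bind them, and of the soluble proteins or decoy receptors that block them. Members were chosen as every gene of the deposited count table whose name begins with Il and a number, which gave 43 of 13124 genes. Sorted by their known roles, 12 were ligands, 26 were receptor chains, 4 were antagonists or decoys and 1, Il4i1, encodes an enzyme that breaks down amino acids. Counts came from the right plantaris tendon of male Sprague Dawley rats, 3 months of age. In the repaired groups the plantaris tendon was cut through its midsubstance and sutured on both sides. These rats had GSK2894631A, an inhibitor of hematopoietic prostaglandin D synthase, by oral gavage 2 times a day at 0, 2 or 6 mg/kg. At 0 mg/kg they were given the vehicle without the inhibitor. At 7 days after repair the labels gave 5 tendons for 0 mg/kg, 4 for 2 mg/kg and 3 for 6 mg/kg (7D groups), and at 21 days they gave 5 tendons at each dose (21D groups). The 3 control tendons came from rats with no tenotomy and no test compound, and whether they were given the vehicle is not stated in the sources used here, so that surgery, suture and gavage cannot be told apart in a comparison with control. Each tendon was 1 library, and nothing was pooled.

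Most members tested were higher after repair, and the largest estimated change belonged to an antagonist. Il1rn, which encodes the soluble antagonist of the interleukin-1 receptor, was 81.6-fold higher at 7D 0 mg/kg than in control tendons, Il6 was 53.0-fold higher and Il1rl1, the receptor for IL-33, was 26.2-fold higher. Each of these genes had a control mean under 3 CPM and passed the filter on low counts through the repaired groups alone. Leaving out 1 tendon gave log2 fold changes of 5.74 to 6.62 for Il1rn and 5.03 to 6.91 for Il6, ranges that overlap. Il15 and the interleukin-12 receptor chain Il12rb2 were lower in every repaired group. From 7 to 21 days Il4r and Il1r1 fell at every dose, although most calls of Il1r1 were lost when 1 tendon was left out, and no member differed between doses of GSK2894631A past the threshold at either time.

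Total counts were 12405741 to 49909374 per tendon, and 3 counts corresponded to 0.0562 to 0.245 CPM (counts scaled to a library of 1000000 counts) after scaling by TMM, which sets library sizes so that most genes do not differ. TMM factors were 0.599 to 0.788 in control tendons and 0.950 to 1.10 in repaired tendons. Members took 0.0352 to 0.0786% of the counts of a control tendon and 0.157 to 0.238% of those of a 7D 0 mg/kg tendon. Control tendons held much skeletal muscle RNA, with 13.7 to 19.7% of their counts on 9 muscle genes against 0.00675 to 6.48% in repaired tendons. The tendon genes Tnmd, Mkx, Scx, Fmod, Kera and Thbs4 summed to 1655 to 5939 CPM in control tendons and 821 to 4231 CPM in repaired tendons. Replicate 4 of the controls had the highest muscle share and the lowest TMM factor, and replicate 2 of the 21D 0 mg/kg group lay apart from its group (60.8 on the first principal component against -52.6 to -15.1 for the other 4). Replicates 3 and 5 of the 21D 6 mg/kg group were set off in the same direction (27.4 and 25.7 against -67.3 to -40.0). Calls that were lost or gained without control replicate 4 or 21D 0 mg/kg replicate 2 are named with the results.

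Interleukins act in a few families that share receptor parts. Ligands of the interleukin-1 family (IL-1β, IL-18, IL-33 and the IL-36 proteins) bind paired receptor chains that signal through MyD88 to NF-kB, and this family has its own antagonists and decoys. The interleukin-6 family (IL-6 and IL-11) signals through the shared chain gp130, encoded by Il6st, to JAK kinases and STAT3. The common gamma chain, encoded by Il2rg, is shared by the receptors for IL-2, IL-4, IL-7, IL-15 and IL-21. In healing tendon IL-1β and IL-6 are known as early inflammatory signals.

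The promoters of 4 members are shown because they had the 3 largest increases among the ligands tested and the largest decrease among the receptors at 7D 0 mg/kg. The sequences are from RefSeq on assembly GRCr8, run 5′ to 3′ on the strand of the gene and end at the base before the annotated start. Capitals mark the motifs found, namely an NF-kB site, the cyclic AMP response element TGACGTCA, the AP-1 site TGANTCA, the STAT site TTCNNNGAA and the TATA box TATAAA, all searched on both strands.
Il6 lies at chr4:5894576-5894825 on the minus strand, Il11 at chr1:78098372-78098621 on the plus strand, Il1b at chr3:137036582-137036831 on the minus strand and Il12rb2 at chr4:97844938-97845187 on the minus strand.
Il6: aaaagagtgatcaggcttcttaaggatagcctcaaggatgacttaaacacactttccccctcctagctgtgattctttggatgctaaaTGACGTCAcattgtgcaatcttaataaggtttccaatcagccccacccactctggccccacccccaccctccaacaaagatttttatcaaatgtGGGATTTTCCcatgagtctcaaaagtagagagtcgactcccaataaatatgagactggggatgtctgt
Il11: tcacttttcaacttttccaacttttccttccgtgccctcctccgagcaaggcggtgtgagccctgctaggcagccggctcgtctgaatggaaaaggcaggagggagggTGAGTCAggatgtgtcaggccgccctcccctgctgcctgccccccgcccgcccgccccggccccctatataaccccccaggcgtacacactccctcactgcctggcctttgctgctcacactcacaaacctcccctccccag
Il1b: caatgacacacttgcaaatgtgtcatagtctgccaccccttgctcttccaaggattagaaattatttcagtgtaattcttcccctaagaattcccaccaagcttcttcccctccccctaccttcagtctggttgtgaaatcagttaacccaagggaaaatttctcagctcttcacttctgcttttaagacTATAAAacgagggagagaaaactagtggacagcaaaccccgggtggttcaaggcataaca
Il12rb2: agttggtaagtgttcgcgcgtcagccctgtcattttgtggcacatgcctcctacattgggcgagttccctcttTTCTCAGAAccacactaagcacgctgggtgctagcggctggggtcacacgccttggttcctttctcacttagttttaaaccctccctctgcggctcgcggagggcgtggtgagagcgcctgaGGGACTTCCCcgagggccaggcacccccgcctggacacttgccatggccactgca
Within these windows Il6 held a cyclic AMP response element at 162 to 155 bases and an NF-kB match at 68 to 59 bases upstream of the start, Il11 an AP-1 match at 142 to 136 bases, and Il1b a TATA box at 60 to 55 bases. Il12rb2, which was lower after repair, held an NF-kB match too, at 55 to 46 bases, and a STAT match at 177 to 169 bases. A window was found for 33 of the 43 members. Among the 33, NF-kB matches were in 6 (Il6, Il12rb2, Il1r1, Il1rap, Il27ra and Il4i1) beside 6.33% of all 33469 windows, AP-1 in 4 (6.34% of all), the cyclic AMP element in 2 (1.59%), STAT in 3 (7.67%) and TATA in 6 (12.9%). Members were counted by gene, over 40 windows in all, and the shares of all by window, so the counts and shares are not on the same scale. A match is a description of these letters and not a site in use.

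Of the 43 members, 37 were tested, each with a group mean of 3 CPM or more in 1 group or more. A member was counted as higher or lower against control where it changed by at least 1.5-fold and its p from the quasi-likelihood test of edgeR, adjusted by Benjamini-Hochberg over 12558 genes, was under 0.05, and all adjusted p given below are from that test unless another is named. In 7D 0 mg/kg tendons 26 of the 37 were higher and 2 lower, where 29% of all genes tested were higher and 27.6% lower. At 7D 2 mg/kg the counts were 27 and 2 (29.1 and 26.5% of all genes), and at 7D 6 mg/kg they were 26 and 2 (28.3 and 27.4%). At 21 days 22 members were higher at 0 mg/kg (25.4% of all genes), 24 at 2 mg/kg (26.7%) and 22 at 6 mg/kg (23.9%), with 2 lower in each (25.2, 27.3 and 24.6%). The median log2 fold change of the members was 1.51, 1.55 and 1.58 in the 7D groups and 1.19, 1.22 and 1.15 in the 21D groups, beside 0.01 to 0.05 over all genes. These counts describe the members that passed the filter and do not stand for all 43. Of the 37, 12 had a control mean under 3 CPM after TMM scaling and passed through the repaired groups alone. They were Il10ra, Il11, Il18r1, Il18rap, Il1b, Il1rl1, Il1rl2, Il1rn, Il21r, Il2rb, Il6 and Il7. The filter used CPM before TMM scaling, where the control means of Il17rd, Il15ra and Il4i1 were under 3 CPM too. Without the filter the counts of higher members out of 43 were 30, 32, 30, 25, 27 and 26. These counts are not free of selection either. The deposited count table lacked other genes of the family, such as Il1a, Il19 and Il23r, and may itself have been limited to expressed genes. The share of all genes in that fit is not given here.

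The 6 repaired groups share the same 3 control tendons, so their counts are not separate evidence. Called higher in all 6 were 22 members, namely 6 ligands, 14 receptor chains, Il1rn and Il18bp, and Il15 and Il12rb2 were lower in all 6. At most 23.9% of all genes could be higher in all 6 and at most 24.6% lower, the smallest shares of a single group. Called in no group were 6 members (Il1r2, Il11ra1, Il15ra, Il17rd, Il1rap and Il20rb), and the share of all genes called in no group was not computed. Without control replicate 4 the number of higher members at 21D 2 mg/kg was 15 in place of 24, and at 21D 6 mg/kg it was 16 in place of 22. Lost at 21D 2 mg/kg were Il1b, Il6, Il18, Il34, Il10ra, Il18r1, Il1r1, Il2rb and Il4i1, and at 21D 6 mg/kg Il1b, Il6, Il18, Il18bp, Il10ra and Il17re. In the other groups that fit lost Il2rb and Il10ra at 21D 0 mg/kg, Il6r and Il4i1 at 7D 0 mg/kg, Il33, Il6st, Il6r and Il4i1 at 7D 2 mg/kg and Il6r at 7D 6 mg/kg, and it added Il20rb as lower at 7D 0 and 6 mg/kg.

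**Figure D1:**
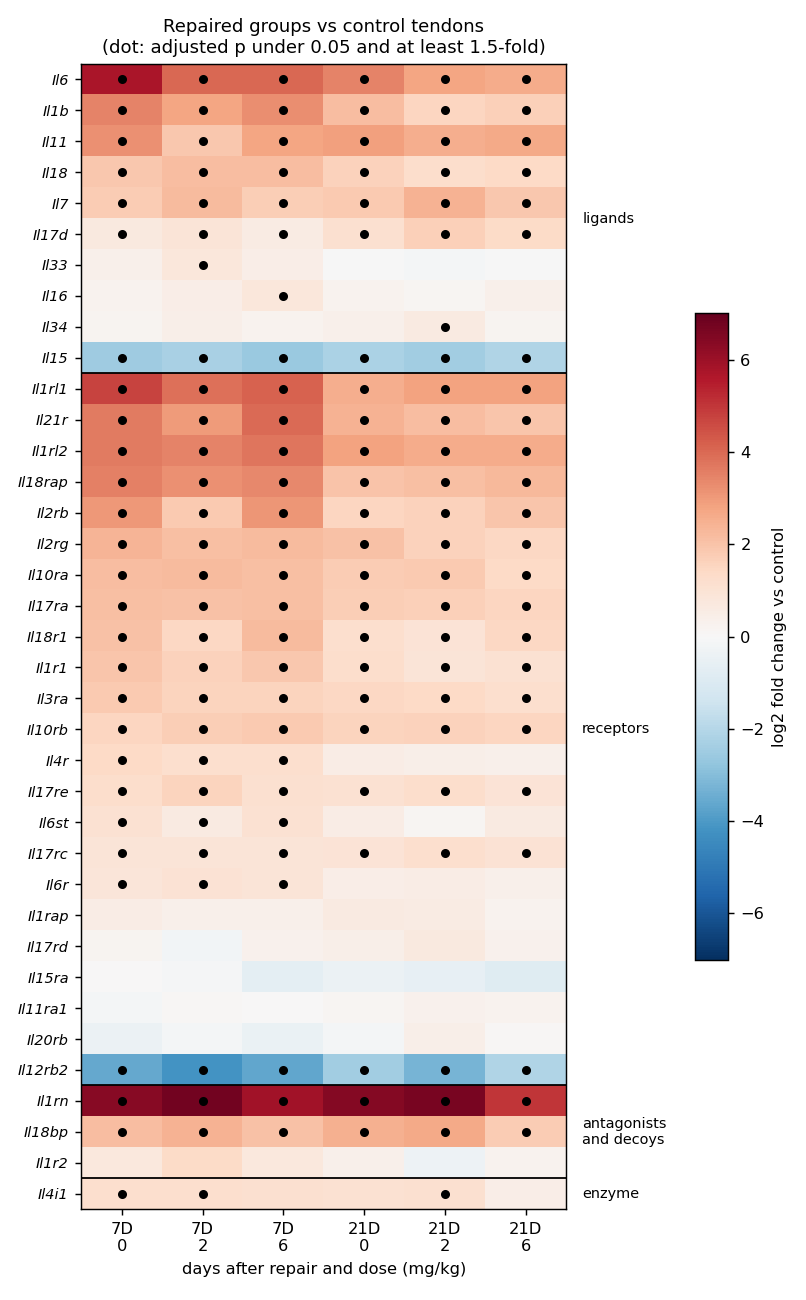
Log2 fold change against control tendons (colour, from blue for lower to red for higher) of the 37 members tested (listed by role) in the 6 repaired groups (columns, days and dose in mg/kg), with a dot where the adjusted p was under 0.05 and the change at least 1.5-fold. Dots fill all 6 columns for 22 higher members, and Il15 and Il12rb2 are the 2 members that are lower with a dot in all 6.

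Among the ligands, Il6 (ENSRNOG00000010278, chromosome 4) had the largest increase. Counts of Il6 in the control tendons, in the order of the replicate numbers used for all values here, were 0, 10 and 3, or 0, 0.401 and 0.245 CPM. In 7D 0 mg/kg tendons Il6 was at 30.02, 4.80, 3.89, 2.49 and 17.8 CPM, at 7D 2 mg/kg at 4.27, 2.89, 2.29 and 5.20 CPM and at 7D 6 mg/kg at 2.81, 1.82 and 6.02 CPM. Every 7D tendon was above every control tendon, and replicates 1 and 5 of the 0 mg/kg group stood above all other 7D tendons. At 21 days the values were 0.669, 4.12, 0.229, 0.626 and 6.65 CPM at 0 mg/kg, 0.982, 0.747, 3.38, 1.39 and 0.907 CPM at 2 mg/kg and 1.52, 1.13, 0.704, 0.967 and 2.44 CPM at 6 mg/kg, and 1 of the 0 mg/kg tendons lay within the control range. The log2 fold change of Il6 was 5.73 at 7 days (standard error 1.21, adjusted p = 0.000173) and 3.46 at 21 days at 0 mg/kg (10.97-fold, standard error 1.15, adjusted p = 0.0104). The 21-day call was lost without control replicate 2, the tendon with no count (log2 fold change 2.65, adjusted p = 0.0554), and with only the 2 groups in the fit (adjusted p = 0.0723).

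IL-1β, encoded by Il1b (ENSRNOG00000004649, chromosome 3), is made by activated macrophages and neutrophils and is cut to its active form by caspase-1. Il1b was at 3.82, 4.21 and 0.327 CPM in control tendons and at 31.7, 17.7, 57.8, 20.8 and 31.2 CPM at 7D 0 mg/kg. Values were 17.4, 28.4, 25.3 and 7.07 CPM at 7D 2 mg/kg, 20.5, 43.7 and 19.2 CPM at 7D 6 mg/kg and 6.90, 27.6, 9.25, 11.6 and 10.6 CPM at 21D 0 mg/kg. Both 0 mg/kg groups lay above the control range, and replicate 2 of the 21D group was the highest there. Il1b was 10.97-fold higher at 7 days (log2 fold change 3.46, standard error 0.632, adjusted p = 3.14e-05) and 4.53-fold higher at 21 days (log2 fold change 2.18, standard error 0.597, adjusted p = 0.00255), with a log2 fold change of 1.72 at 21 days without that replicate. Il18, a relative of IL-1β that needs the same cleavage, was at 6.09, 5.81 and 1.88 CPM in control and 19.3, 13.0, 18.9, 19.6 and 16.2 CPM at 7D 0 mg/kg, and then at 6.69, 23.6, 11.1, 21.4 and 8.90 CPM at 21D 0 mg/kg. It was 3.72-fold higher at 7 days (log2 fold change 1.90, standard error 0.425, adjusted p = 0.000330) and 3.06-fold higher at 21 days (adjusted p = 0.00167).

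IL-11, a member of the interleukin-6 family with known actions on fibroblasts, was low in all groups. Il11 (ENSRNOG00000017386, chromosome 1) was at 0.142, 0.601 and 0.245 CPM in control tendons (3, 15 and 3 counts), 1.18, 4.17, 5.65, 2.90 and 2.08 CPM at 7D 0 mg/kg and 3.34, 2.23, 2.64, 3.55 and 1.09 CPM at 21D 0 mg/kg. Neither repaired group overlapped the controls, and the log2 fold changes were 3.21 (standard error 0.627, adjusted p = 7.22e-05) and 2.89 (standard error 0.622, adjusted p = 0.000270). Il7, a survival factor for lymphocytes, was at 0.849, 2.00 and 0.899 CPM in control, 7.76, 4.55, 3.41, 2.12 and 3.82 CPM at 7D 0 mg/kg and 3.56, 6.61, 2.93, 4.84 and 5.01 CPM at 21D 0 mg/kg. Again the groups did not overlap control, and Il7 was 3.39-fold higher at 7 days (log2 fold change 1.76, standard error 0.450, adjusted p = 0.00120) and 3.58-fold higher at 21 days (adjusted p = 0.000991).

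Il17d was the ligand that rose from 7 to 21 days, as the comparison of times below gives. IL-17D belongs to the interleukin-17 family and is less studied than IL-17A. Its gene was at 8.59, 12.5 and 13.3 CPM in control, 16.0, 22.7, 16.2, 17.5 and 17.9 CPM at 7D 0 mg/kg and 27.4, 14.4, 29.4, 30.5 and 22.1 CPM at 21D 0 mg/kg, where replicate 2 was the lowest. At 2 mg/kg Il17d was at 19.5, 16.6, 22.2 and 26.6 CPM at 7 days and 40.9, 36.2, 33.1, 34.9 and 37.7 CPM at 21 days, and at 6 mg/kg it was at 16.0, 20.7 and 15.1 CPM and 28.9, 28.0, 34.4, 26.8 and 28.0 CPM. All 21D tendons at 2 and 6 mg/kg lay above all 7D tendons of their dose. Against control Il17d was 1.58-fold higher at 7D 0 mg/kg (log2 fold change 0.66, standard error 0.196, adjusted p = 0.00428), a call that was lost without control replicate 2 (log2 fold change 0.42, adjusted p = 0.0946), and 2.17-fold higher at 21D 0 mg/kg (log2 fold change 1.12, standard error 0.199, adjusted p = 3.30e-05).

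Of the remaining ligands 3 were called in a single group each. Il33, an alarm signal kept in the nucleus of stromal cells, was at 276, 229 and 88.3 CPM in control, 324, 294, 258, 198 and 208 CPM in 7D 0 mg/kg and 182, 186, 202, 174 and 227 CPM at 21D 0 mg/kg, with overlapping ranges, and was called higher against control in the 7D 2 mg/kg group alone (log2 fold change 0.79, adjusted p = 0.0156), a call that was lost without control replicate 4. Il16, a chemoattractant for CD4+ cells, was called in the 7D 6 mg/kg group alone (0.79, adjusted p = 0.00243), and Il34, a ligand of the CSF1 receptor, in the 21D 2 mg/kg group alone (0.64, adjusted p = 0.000389). None of the 3 passed the threshold in a comparison of doses. Il10, an anti-inflammatory interleukin, and Il36b, of the interleukin-1 family, did not reach the filter. Il10 was at 0.425, 1.36 and 0 CPM in control and 2.69, 0.987, 1.01, 0.667 and 1.74 CPM at 7D 0 mg/kg, ranges that overlap. Il36b was at 0.236, 0.160 and 0 CPM in control and 2.50, 0.905, 1.82, 0.609 and 2.16 CPM at 7D 0 mg/kg and was higher in a fit without the filter (log2 fold change 3.43, adjusted p = 0.00331).

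**Figure D2:**
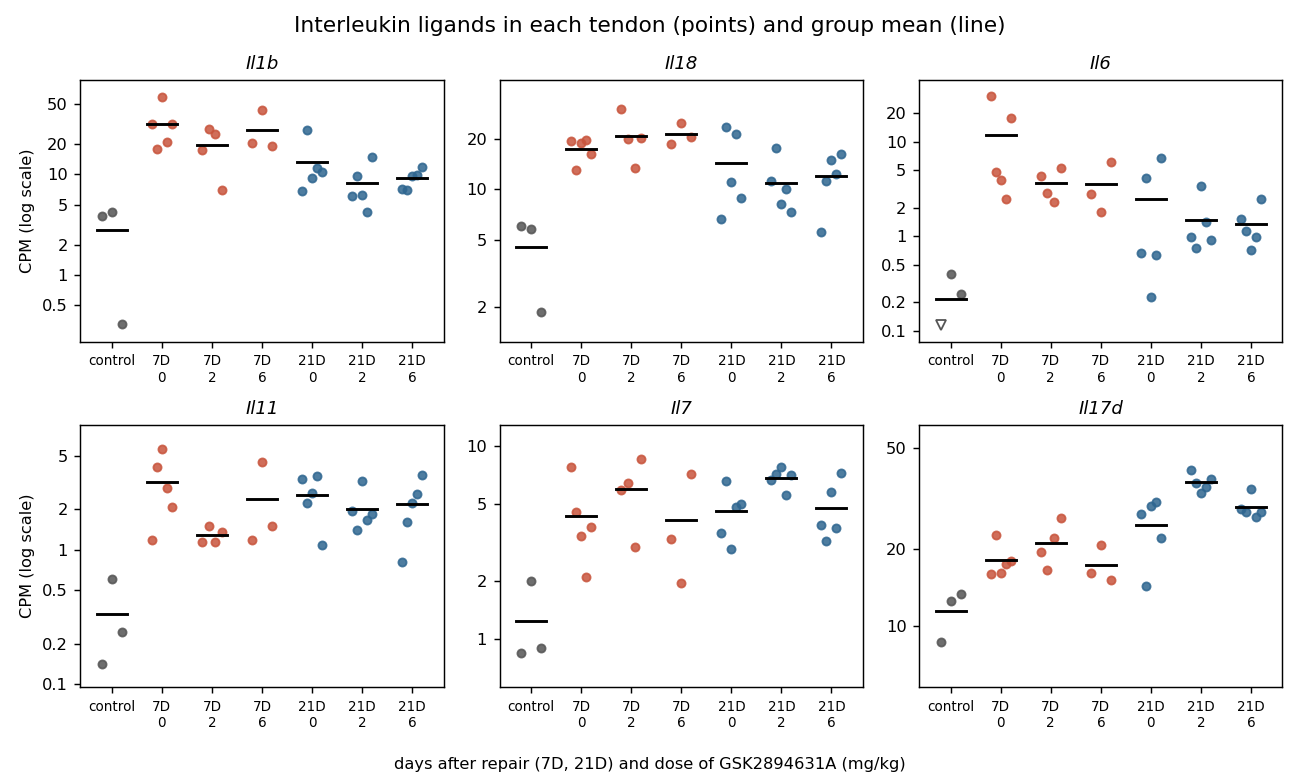
CPM of the 6 ligands that were higher in all repaired groups (log scale) in each tendon (points) with the group mean (line), for control tendons and for 7D and 21D tendons at 0, 2 and 6 mg/kg, where an open triangle marks a tendon with 0 counts. For Il6 and Il1b the 7D 0 mg/kg means (11.8 and 31.9 CPM) stand above the 21D 0 mg/kg means (2.46 and 13.2 CPM), whereas for Il17d the 21D means (24.8 to 36.6 CPM) stand above the 7D means (17.3 to 21.2 CPM).

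Il15 was the ligand that was lower. IL-15 supports natural killer cells and memory T cells and is made in quantity by skeletal muscle. Il15 (ENSRNOG00000003439, chromosome 19) was at 22.7, 23.4 and 54.7 CPM in control tendons and at 6.72, 5.70, 6.63, 4.58 and 5.91 CPM at 7D 0 mg/kg. At 7 days it was 6.41 to 8.29 CPM at 2 mg/kg and 4.999 to 5.91 CPM at 6 mg/kg, and at 21 days it was 8.58, 6.92, 5.84, 6.02 and 8.37 CPM at 0 mg/kg, 5.58 to 7.62 CPM at 2 mg/kg and 6.33 to 9.25 CPM at 6 mg/kg. No repaired tendon reached a control tendon, and Il15 was 5.67-fold lower at 7D 0 mg/kg (log2 fold change -2.50, standard error 0.214, adjusted p = 4.90e-10) and 4.69-fold lower at 21D 0 mg/kg (log2 fold change -2.23, standard error 0.213, adjusted p = 7.89e-09).

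Il12rb2 (ENSRNOG00000007270, chromosome 4), a chain of the interleukin-12 receptor known from T helper and natural killer cells, was the receptor that was lower. In control tendons it was at 8.12, 6.66 and 9.07 CPM, at 7D 0 mg/kg at 0.439, 0.493, 1.34, 0.348 and 0.720 CPM and at 21D 0 mg/kg at 2.32, 0.472, 0.728, 1.496 and 2.21 CPM. It was 11.8-fold lower at 7 days (log2 fold change -3.56, standard error 0.559, adjusted p = 4.30e-06) and 5.49-fold lower at 21 days (log2 fold change -2.46, standard error 0.540, adjusted p = 0.000338). Both lower members were highest in the control tendons, which also had the highest muscle shares. The 3 control tendons, with muscle shares of 13.7 to 19.7%, held 22.7 to 54.7 CPM of Il15 and 6.66 to 9.07 CPM of Il12rb2, each highest in control replicate 4, which had the highest muscle share. The 5 of the 15 21D tendons with a muscle share of 3.45 to 6.48% held 2.16 to 3.74 CPM of Il12rb2, and the other 10, with 0.0466 to 2.20%, held 0.434 to 1.496 CPM. For Il15 these ranges overlapped, at 6.33 to 9.25 CPM and 5.58 to 7.62 CPM, and the 12 7D tendons (0.00675 to 0.890% muscle) held 4.58 to 8.29 CPM. Of Il12rb2 the 7D tendons held 0.164 to 1.34 CPM. The highest of these was replicate 3 at 0 mg/kg, which had the lowest muscle share of its group (0.107%). The part of muscle RNA in either gene was not tested. T cell markers are given below, and the part of cell types in the change of Il12rb2 was not tested either.

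**Figure D3:**
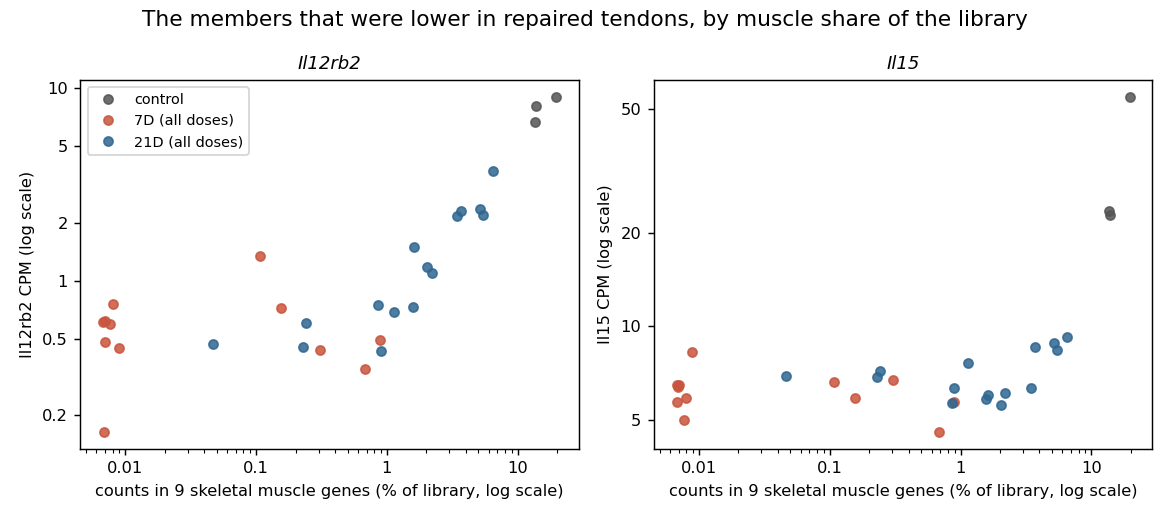
CPM of Il12rb2 (left) and Il15 (right) in each tendon (log scale) against the share of the library's counts on 9 skeletal muscle genes (log scale), for control tendons (grey), 7D tendons (red) and 21D tendons (blue), all doses. The 3 control tendons lie at the top right of both panels, and Il12rb2 among 21D tendons is above 2 CPM only in the 5 tendons with a muscle share of at least 3.45%.

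The largest receptor increase was that of Il1rl1, of the interleukin-1 family. Il1rl1 (ENSRNOG00000014835, chromosome 9) encodes ST2, the receptor for IL-33 on mast cells, regulatory T cells and other immune cells. Il1rl1 was at 4.62, 3.57 and 0.735 CPM in control tendons and 20.7, 107, 80.8, 67.3 and 129.8 CPM at 7D 0 mg/kg. It was at 52.1, 26.1, 46.0 and 57.9 CPM at 7D 2 mg/kg, 24.2, 58.6 and 79.3 CPM at 7D 6 mg/kg and 12.3, 33.1, 19.2, 18.6 and 5.32 CPM at 21D 0 mg/kg. All repaired tendons of these groups were above the controls, and it was 26.2-fold higher at 7D 0 mg/kg (log2 fold change 4.71, standard error 0.737, adjusted p = 4.06e-06) and 5.73-fold higher at 21D 0 mg/kg (log2 fold change 2.52, standard error 0.667, adjusted p = 0.00195). Its ligand Il33 stood at 198 ± 97.7 CPM (SD, n = 3) in control and 256 ± 54.2 CPM (n = 5) at 7D 0 mg/kg with no call in that group, while the receptor was higher. Mast cell genes summed to 7.69 to 54.4 CPM in control and 41.1 to 87.8 CPM at 7D 0 mg/kg.

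Il1rl2, the receptor for the IL-36 proteins, was at 0.944, 3.85 and 0.0817 CPM in control, 16.8, 21.9, 21.3, 27.1 and 20.7 CPM at 7D 0 mg/kg and 10.6, 14.9, 14.3, 11.2 and 9.39 CPM at 21D 0 mg/kg. The groups lay apart, with 12.4-fold (log2 fold change 3.63, standard error 0.521, adjusted p = 1.21e-06) and 6.94-fold (adjusted p = 3.63e-05) higher levels. Il18rap, the signalling partner of the IL-18 receptor, was at 2.31, 2.53 and 0.0817 CPM in control, 14.8, 17.2, 22.3, 14.6 and 29.6 CPM in 7D 0 mg/kg and 4.25, 11.2, 6.26, 8.07 and 4.45 CPM at 21D 0 mg/kg. It was 11.4-fold higher at 7 days (log2 fold change 3.50, standard error 0.555, adjusted p = 4.78e-06) and 3.94-fold higher at 21 days (adjusted p = 0.00188, or 0.0512 with only the 2 groups in the fit). Il18r1, the chain of the same receptor that binds IL-18, was 4.17-fold higher at 7D 0 mg/kg (0.865 ± 0.278 to 3.66 ± 0.883 CPM, adjusted p = 2.97e-05). Il1r1, the signalling receptor for IL-1, was at 21.7, 45.6 and 12.5 CPM in control and 113, 101, 97.5, 91.9 and 115 CPM at 7D 0 mg/kg, 3.88-fold higher (log2 fold change 1.96, standard error 0.270, adjusted p = 6.55e-07). Its partner chain Il1rap was not past the threshold, at 7.57 ± 1.56 CPM in control and 10.8 ± 1.69 CPM at 7D 0 mg/kg (adjusted p = 0.145). These receptor genes are neighbours in the genome: on chromosome 9 Il1r1, Il1rl2, Il1rl1, Il18r1 and Il18rap follow each other with no other protein-coding gene between them, and Il1r2 lies on the same chromosome, separated from Il1r1 by 1 gene (order in GRCr8). The 5 genes in the run were higher in all 6 repaired groups, which share the same 3 control tendons, beside at most 23.9% of all genes. Of the run, Il1rl2, Il1rl1, Il18r1 and Il18rap had a control mean under 3 CPM and passed the filter through the repaired groups alone. Their calls were favoured by that filter, so the comparison with all genes is a description and not a test of the run.

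Il21r, which binds IL-21 from T helper cells and is expressed by B, T and natural killer cells, was at 1.79, 1.20 and 0 CPM in control, 10.6, 11.3, 14.3, 12.2 and 17.8 CPM at 7D 0 mg/kg and 5.95, 9.10, 4.41, 6.89 and 3.05 CPM at 21D 0 mg/kg. Control replicate 4 had no count, a floor of 3 counts being 0.245 CPM there. Il21r was 12.4-fold higher at 7 days (log2 fold change 3.63, standard error 0.614, adjusted p = 1.17e-05) and 5.50-fold higher at 21 days (adjusted p = 0.000770). Il2rb, shared by the receptors for IL-2 and IL-15, was at 1.32, 0.802 and 0.735 CPM in control, 4.91, 5.10, 12.7, 6.38 and 11.2 CPM at 7D 0 mg/kg and 1.39, 3.46, 2.33, 4.11 and 2.56 CPM at 21D 0 mg/kg. It was 8.35-fold higher at 7 days (log2 fold change 3.06, standard error 0.612, adjusted p = 9.19e-05), and 2.86-fold at 21 days (adjusted p = 0.0247), a call that was lost when control replicate 3, control replicate 4 or 21D 0 mg/kg replicate 4 was left out (adjusted p up to 0.0905). Il2rg, the common gamma chain, was at 5.19, 12.9 and 7.84 CPM in control, 55.0, 40.4, 56.1, 30.8 and 46.6 CPM at 7D 0 mg/kg and 22.9, 76.9, 20.7, 20.7 and 35.6 CPM at 21D 0 mg/kg, where replicate 2 was the highest. It was 5.28-fold higher at 7 days (log2 fold change 2.40, standard error 0.430, adjusted p = 2.44e-05) and 4.07-fold higher at 21 days, or a log2 fold change of 1.52 without that replicate in place of 2.03. Il15ra, which presents IL-15 to cells with Il2rb and Il2rg, was not called in any group (3.79 ± 2.59 CPM in control and 3.87 ± 1.93 CPM at 7D 0 mg/kg).

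Il10ra, the chain that binds IL-10, was at 6.46, 2.37 and 0.0817 CPM in control, 10.8, 8.91, 15.6, 12.6 and 20.9 CPM at 7D 0 mg/kg and 3.44, 23.2, 7.51, 9.88 and 9.35 CPM at 21D 0 mg/kg, the last overlapping control. It was 4.48-fold higher at 7 days (log2 fold change 2.16, standard error 0.621, adjusted p = 0.00323). At 21 days the log2 fold change of Il10ra was 1.80 (adjusted p = 0.0123), and the call was lost without 21D 0 mg/kg replicate 2 (1.29, adjusted p = 0.0506), without control replicate 4 (1.23, adjusted p = 0.0571) and with only the 2 groups in the fit (adjusted p = 0.140). Its partner Il10rb, which also serves other receptors, was at 19.3 ± 5.26 CPM in control and 55.1 ± 4.94 CPM at 7D 0 mg/kg (2.84-fold higher, adjusted p = 2.06e-07). Il3ra was 3.52-fold higher at 7D 0 mg/kg (adjusted p = 2.18e-08), and of the 4 interleukin-17 receptor chains tested Il17ra (4.32-fold, adjusted p = 9.46e-08), Il17re (2.36-fold, adjusted p = 0.000647) and Il17rc (1.90-fold, adjusted p = 0.000223) were higher while Il17rd was not past the threshold (log2 fold change 0.16, adjusted p = 0.771), although it was without control replicate 2 (1.40, adjusted p = 0.0148).

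Among receptor chains of the interleukin-6 family, the ligand-binding chain Il6r was at 59.6, 48.7 and 16.1 CPM in control and 77.5, 60.1, 66.2, 60.6 and 107 CPM at 7D 0 mg/kg, higher by a log2 fold change of 0.84 (adjusted p = 0.0237), and it lost that call without control replicate 4 or without 7D 0 mg/kg replicate 5 (adjusted p up to 0.236). The shared chain Il6st was at 116 ± 71.0 CPM in control and 248 ± 53.4 CPM at 7D 0 mg/kg (log2 fold change 1.09, adjusted p = 0.00117). Both were called higher in the 3 7D groups and in no 21D group, and at 7D 2 mg/kg both calls were lost without control replicate 4. Il11ra1, the receptor for IL-11, was at 137 ± 8.62 CPM in control and 122 ± 14.5 CPM at 7D 0 mg/kg (log2 fold change -0.16, adjusted p = 0.382) and was called in no group. Il4r, the receptor chain for IL-4 and IL-13, was at 52.5, 44.9 and 41.0 CPM in control tendons and 114, 107, 124, 87.0 and 171 CPM at 7D 0 mg/kg, with no overlap (2.61-fold higher, log2 fold change 1.38, standard error 0.197, adjusted p = 1.05e-06). At 21D 0 mg/kg Il4r was at 54.6, 88.6, 57.1, 79.2 and 54.4 CPM, still above control but under the 1.5-fold line (1.45-fold, adjusted p = 0.0165).

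**Figure D4:**
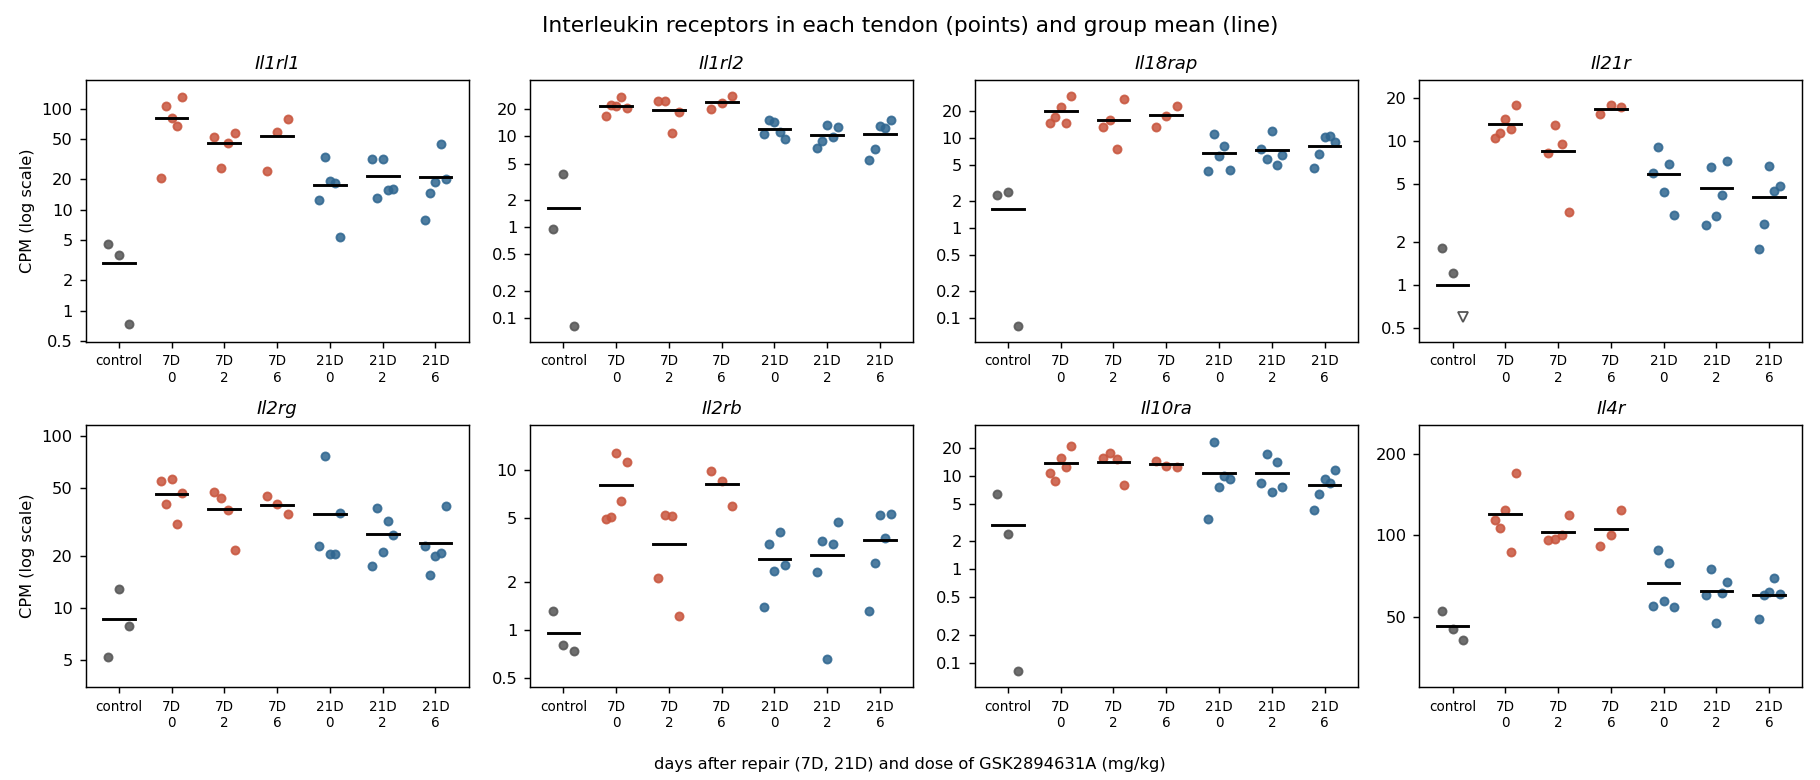
CPM of 8 receptor chains (log scale) in each tendon (points) with the group mean (line), for control tendons and for 7D and 21D tendons at 0, 2 and 6 mg/kg, where an open triangle marks a tendon with 0 counts. Il1rl1 goes from a mean of 2.98 CPM in control to 81.1 CPM in 7D 0 mg/kg and 17.7 CPM at 21D 0 mg/kg. Control replicate 4 is the lowest point for Il1rl1, Il1rl2, Il18rap, Il21r, Il10ra and Il4r.

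Receptors that were too low to be tested were Il2ra, Il13ra1 and Il27ra. In a fit without the filter Il2ra, the high-affinity chain for IL-2, was higher at 7D 0 mg/kg (log2 fold change 3.14, adjusted p = 0.000117), as were Il13ra1 (2.43, adjusted p = 5.13e-05) and Il27ra (1.99, adjusted p = 0.0130). Il20rb, found in skin and other epithelia, was not called, at 21.1 ± 8.53 CPM in control and 16.2 ± 3.88 CPM at 7D 0 mg/kg, but without control replicate 4 it was lower there by the same thresholds (log2 fold change -0.74, adjusted p = 0.0151). The enzyme gene Il4i1 was at 3.82, 4.41 and 3.10 CPM in control and 10.5, 8.42, 10.5, 5.16 and 8.36 CPM at 7D 0 mg/kg and was 2.26-fold higher (adjusted p = 0.0385), a call that was lost in 5 of the 8 fits that left out 1 tendon (control replicates 2, 3 and 4, and 7D 0 mg/kg replicates 1 and 3, adjusted p up to 0.130).

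Sums of immune cell markers reached higher values in the same tendons, and no test was run on them. The summed CPM of 6 T cell genes was 2.45 to 5.47 in control tendons, 32.4 to 73.8 at 7D 0 mg/kg and 14.6 to 25.7 at 21D 0 mg/kg. Those of 4 neutrophil genes were 4.49 to 14.7, 52.5 to 106 and 7.91 to 25.9, and those of 4 macrophage genes were 82.9 to 356, 437 to 1029 and 244 to 1309. Of 4 B cell genes 3 were listed, at 0 to 1.23, 0.699 to 17.3 and 2.05 to 10.2 CPM, with Ms4a1 at 0 counts in every control tendon. In these 0 mg/kg groups the T cell sums lay apart from control at both times. The neutrophil and macrophage sums overlapped control at 21 days, and the B cell sums did so at 7 days. In whole tendon, more cells of a type and more RNA per cell cannot be told apart, and the part of cell number in the members' changes was not tested.

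Antagonists and decoys were led by Il1rn (ENSRNOG00000005871, chromosome 3), whose product binds the IL-1 receptor without signalling. Il1rn was at 2.22, 2.29 and 0.735 CPM in control, 354, 87.1, 148, 29.2 and 125 CPM at 7D 0 mg/kg, 393, 214, 147 and 29.6 CPM at 7D 2 mg/kg and 217, 73.6 and 33.5 CPM at 7D 6 mg/kg. Values at 21 days were 21.4, 500.1, 20.7, 47.9 and 201 CPM at 0 mg/kg, 30.1, 366, 36.1, 434 and 53.3 CPM at 2 mg/kg and 20.4, 16.6, 39.9, 36.4 and 184 CPM at 6 mg/kg. All 27 repaired tendons were above all 3 controls, and within each repaired group the highest tendon was at least 6 times the lowest. The log2 fold change was 6.35 at 7D 0 mg/kg (with a standard error of 1.51 and an adjusted p = 0.000596) and 6.44 at 21D 0 mg/kg (standard error 1.52, adjusted p = 0.000668), or 5.31 at 21 days without replicate 2.

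Il18bp, whose secreted product holds IL-18 away from its receptor, was at 7.08, 8.34 and 11.2 CPM in control, 65.1, 26.3, 38.6, 18.4 and 49.6 CPM at 7D 0 mg/kg and 22.0, 117, 15.4, 32.04 and 56.5 CPM at 21D 0 mg/kg. The ranges lay apart from control, and Il18bp was 4.49-fold higher at 7 days (log2 fold change 2.17, standard error 0.722, adjusted p = 0.00964) and 5.51-fold higher at 21 days (log2 fold change 2.46, standard error 0.732, adjusted p = 0.00486). Il1r2, a decoy receptor that binds IL-1 without signalling, was called in no group. It was at 1.75, 23.7 and 0.899 CPM in control, so that 1 control tendon was above all 7D 0 mg/kg tendons (18.8, 15.6, 16.3, 10.2 and 13.1 CPM) and all 21D 0 mg/kg tendons (12.7, 14.4, 9.25, 13.6 and 7.60 CPM) and the other two were below all of them. Its log2 fold change was 0.73 at 7D 0 mg/kg (adjusted p = 0.257) and 0.36 at 21D 0 mg/kg (adjusted p = 0.582), and without control replicate 3 it was 3.46 (adjusted p = 6.22e-07) and 3.11 (adjusted p = 3.63e-06). Whether Il1r2 differed from control therefore rests on that 1 tendon. Il13ra2, a decoy for IL-13, did not reach the filter and was at 1.75, 2.33 and 2.12 CPM in control and 3.32, 1.59, 1.54, 2.23 and 2.08 CPM at 7D 0 mg/kg.

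The balance of an antagonist to its partner was compared as the log2 ratio of their counts within each tendon, which does not depend on library size, with a 2-sided exact permutation test. With 5 tendons against 3 the smallest p this test can give is 0.0357, and none of the 12 tests passed Benjamini-Hochberg adjustment. Il1rn counts were 0.545 to 2.11 per Il1b count in control tendons, 1.40 to 11.2 at 7D 0 mg/kg and 2.23 to 18.9 at 21D 0 mg/kg. The mean log2 ratio was higher by 2.12 at 7 days (exact permutation p = 0.0714, adjusted p = 0.214) and by 2.84 at 21 days, where the groups did not overlap (exact permutation p = 0.0357, adjusted p = 0.143). Il13ra2 counts were 2.27 to 17.7 per count of Il13ra1, the signalling chain for IL-13, in control tendons, 0.661 to 1.47 at 7D 0 mg/kg and 0.382 to 2.19 at 21D 0 mg/kg. The mean log2 ratio differed from control by -2.77 at 7 days and by -3.03 at 21 days, with no overlap (exact permutation p = 0.0357 and adjusted p = 0.143 for both), on Il13ra1 counts of 16, 8 and 1 in the control tendons. For Il18bp to Il18 the differences were -0.03 and 0.45 on the log2 scale, and for Il1r2 to Il1r1 they were -0.07 and 0.30, with exact permutation p of 0.536 to 0.964, and the groups overlapped.

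**Figure D5:**
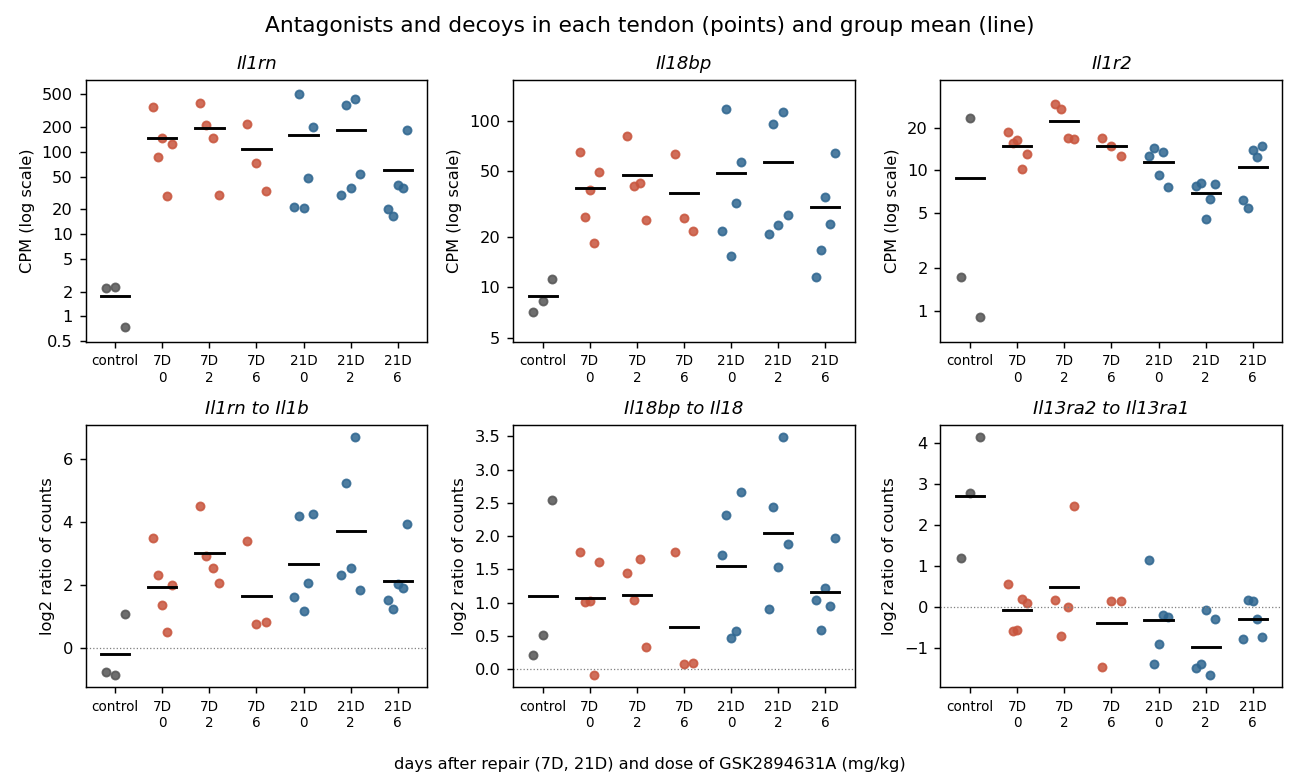
Top, CPM of Il1rn, Il18bp and Il1r2 (log scale) in each tendon (points) with the group mean (line). Bottom, the log2 ratio of counts of 3 antagonists or decoys to their partners with 0.5 added to each count, where the control values of Il1rn to Il1b lie below all 21D 0 mg/kg values and 1 of the 3 control tendons of Il1r2, at 23.7 CPM, lies above most repaired tendons.

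Changes from 7 to 21 days were tested at each dose, with an adjusted p under 0.05 as the call. At 0 mg/kg 5 of the 37 members changed (5.35% of all genes, 2.88% higher and 2.47% lower), all of them receptors and all lower. These were Il1rl1 (log2 fold change -2.19, standard error 0.514, adjusted p = 0.0160), Il2rb (-1.55, adjusted p = 0.0448), Il18rap (-1.53, adjusted p = 0.0281), Il4r (-0.85, adjusted p = 0.00486) and Il1r1 (-0.73, adjusted p = 0.0464). At 2 mg/kg 5 members changed (13.1% of all genes, 7.09% higher and 5.98% lower), with Il17d higher (0.79, adjusted p = 0.00390) and Il33 (-0.91, adjusted p = 0.0132), Il4r (-0.73, adjusted p = 0.00521), Il1r1 (-0.71, adjusted p = 0.0394) and Il1r2 (-1.71, adjusted p = 0.0270) lower. At 6 mg/kg 5 members changed (13.1% of all genes, 8.54% higher and 4.55% lower), with Il17d higher (0.76, adjusted p = 0.0107) and Il21r (-2.04, adjusted p = 0.00698), Il4r (-0.80, adjusted p = 0.00498), Il1r1 (-0.79, adjusted p = 0.0327) and Il1b (-1.60, adjusted p = 0.0401) lower. The shares of members called were 13.5% at each dose, near the share of all genes at 2 and 6 mg/kg.

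Of the members called at every dose, Il4r kept its calls more widely than Il1r1. Its 7D tendons were at 95.8, 97.1, 101 and 118 CPM at 2 mg/kg and 91.2, 99.9 and 124 CPM at 6 mg/kg, and its 21D tendons at 59.9, 74.7, 47.3, 60.9 and 67.4 CPM and 49.1, 60.1, 61.7, 69.5 and 60.4 CPM, with no overlap between the times at either dose. At 0 mg/kg the lowest 7D tendon (87.0 CPM) was just under the highest 21D tendon (88.6 CPM, replicate 2), and Il4r kept its call in every fit that left out 1 tendon at each dose. Il1r1, at 91.9 to 115 CPM at 7D 0 mg/kg and 49.6 to 71.5 CPM at 21D 0 mg/kg, did not overlap between these groups, yet its adjusted p went over 0.05 in 9 of 10 fits that left out 1 tendon at 0 mg/kg, 7 of 9 at 2 mg/kg and 5 of 8 at 6 mg/kg (up to 0.125, 0.122 and 0.224). Il2rb lost its call in 7 of 10 such fits (adjusted p up to 0.135) and Il18rap in 4 of 10 (up to 0.0873), while Il1rl1 lost it with only the 2 groups in the fit (adjusted p = 0.0519). At 2 mg/kg Il33 lost its call without 7D replicate 5 (adjusted p = 0.0703) and Il1r2 in 5 of 9 fits (up to 0.0706), and at 6 mg/kg Il17d lost it without 7D replicates 1 or 5 (up to 0.0710) and Il1b in 6 of 8 fits (up to 0.245). Without 21D 0 mg/kg replicate 2 the number of members changed at 0 mg/kg was 10 in place of 5, with Il6, Il1b, Il2rg, Il11ra1 and Il17d added. Whether the change with time differed between doses was tested as an interaction, which called no member.

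Doses of GSK2894631A were compared within each time. At 7 days the muscle share of the counts was 0.107 to 0.890% at 0 mg/kg and 0.00675 to 0.00892% at 2 and 6 mg/kg, and its part in these comparisons was not tested. No member passed an adjusted p under 0.05 with edgeR's quasi-likelihood test across the 3 doses at 7 days (2.05% of all genes did) or at 21 days (0% of all genes). The same held for every pair of doses at 7 days (2.36% of all genes for 2 against 0 mg/kg, 0.908% higher and 1.45% lower, 0.39% for 6 against 0 mg/kg and 0% for 6 against 2 mg/kg) and at 21 days (0% for each), and for the interaction of dose and time (0.39%). At an unadjusted p under 0.05 there were 3 members across doses at 7 days (Il11, Il16 and Il2rb), 2 at 21 days (Il17d and Il34) and 0 for the interaction, beside 1576, 1366 and 985 of all 12558 genes. For 2 against 0 mg/kg this number was 3 at each time (1942 of all genes at 7 days and 1078 at 21 days). For 6 against 0 mg/kg it was 1 among 7D and 0 among 21D tendons (746 and 810 of all genes). For 6 against 2 mg/kg it was 2 at each time (997 and 1751 of all genes). DESeq2 called 0 members in all of these comparisons but 21D 6 against 2 mg/kg, where it called 1, Il34.

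The values behind these small p were as follows. Il11 was at 1.14, 1.51, 1.15 and 1.35 CPM at 7D 2 mg/kg, at the low end of the 0 mg/kg range, and its log2 difference from 0 mg/kg was -1.30 ± 0.482 (standard error, adjusted p = 0.167). Il6 differed by -1.69 between 7D 2 and 0 mg/kg (standard error 0.803, adjusted p = 0.311) and by -1.72 between 6 and 0 mg/kg (standard error 0.892, adjusted p = 0.860), and its ranges overlapped in both. Il2rb, at 2.10, 5.24, 5.14 and 1.22 CPM at 7D 2 mg/kg and 9.81, 8.56 and 5.99 CPM at 7D 6 mg/kg, differed by -1.23 between 2 and 0 mg/kg (adjusted p = 0.201). Il16 was at 43.4, 31.3, 27.0, 33.2 and 39.3 CPM at 7D 0 mg/kg and 50.5, 51.0 and 48.0 CPM at 6 mg/kg, a difference of 0.52 (adjusted p = 0.522). At 21 days Il17d differed by 0.56 between 2 and 0 mg/kg with no overlap (standard error 0.163, adjusted p = 0.388), and Il34, at 32.1, 35.9, 26.6, 29.6 and 30.6 CPM at 2 mg/kg and 24.3, 19.9, 27.3, 21.8 and 19.9 CPM at 6 mg/kg, by -0.45 between 6 and 2 mg/kg (standard error 0.123, adjusted p = 0.153). For Il1rn the log2 difference from 0 mg/kg was 0.40 (2 mg/kg) and -0.46 (6 mg/kg) among 7D tendons, and 0.22 and -1.41 among 21D tendons, with standard errors of 0.971, 1.08, 0.919 and 0.938, and none passed the threshold.

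The other genes of interleukin signalling were taken from lists drawn up by role. Of 13 kin ligands and receptor chains 10 were tested, with 7 higher and 1 lower at 7D 0 mg/kg, where 29% of all genes were higher and 27.6% lower. The genes named here were picked after their values were seen, as partners of the members above. They included Osm, a cytokine of the interleukin-6 family (log2 fold change 2.90, adjusted p = 0.000191), its receptor Osmr (2.31, adjusted p = 2.89e-07) and Csf2rb, the signalling chain shared with Il3ra (2.53, adjusted p = 1.07e-05), whereas Lifr was lower (-1.16, adjusted p = 0.00187). Of 18 kinases, adaptors and STATs 17 were tested, and 9 were higher and 1 lower. Jak3, the kinase that binds the common gamma chain, was higher by 2.35 (adjusted p = 8.37e-08), Traf3ip2, the adaptor of interleukin-17 receptors, by 2.22 (adjusted p = 1.73e-09) and Irak4, a kinase bound by MyD88, by 1.68 (adjusted p = 4.14e-08). Stat5b, which acts below the IL-2 and IL-15 receptors, was lower (-0.77, adjusted p = 7.65e-06).

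Feedback inhibitors of the pathway were 7 higher and 1 lower of 10 tested. Socs1 and Socs3, which block JAK kinases, were higher by 3.14 (adjusted p = 1.56e-08) and 2.17 (adjusted p = 5.46e-06), and Cish, a STAT5 target of the same family, was lower (-1.35, adjusted p = 0.000584). All 4 genes of interleukin-1 processing were higher, namely Nlrp3 (2.02), Gsdmd (1.29), Pycard (1.25) and Casp1 (0.79). The median log2 fold change was 1.44 for the kin ligands and chains, 0.62 for kinases, adaptors and STATs, 1.05 for the feedback inhibitors and 1.27 for interleukin-1 processing, beside 0.05 over all genes. In 21D 0 mg/kg tendons the counts of higher and lower genes were 5 and 1, 7 and 1, 7 and 1, and 4 and 0 for these lists, beside 25.4% of all genes higher and 25.2% lower.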

How the data were processed

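RNA from the plantaris tendons was sequenced as single-end reads, and the authors deposited raw counts per gene. Per the study's methods, reads were trimmed with fastp, aligned with STAR to rn6 and counted in exons of Ensembl release 95. FastQC, STAR and edgeR are named in the submitters' processing notes, without versions. A second deposited table held the authors' edgeR comparisons, fold changes and p-values, of which only the gene name, chromosome and width columns (width in bases, not printed) were used. Counting by strand is not given in the sources used here, so overlapping and antisense genes may share reads. Lengths of exons were not used, so levels are not compared between genes.

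Counts of all 30 tendons entered 1 quasi-likelihood fit in edgeR 4.0.16 (limma 3.58.1, R 4.3.3) with a mean per group, TMM scaling and no covariate, after removal of 566 of 13124 genes that had no group mean of at least 3 CPM. A call against control needed a Benjamini-Hochberg adjusted p under 0.05 over 12558 genes and a 1.5-fold change, and other comparisons needed the p alone. Values in single tendons, in control and 0 mg/kg groups and for some members at other doses, were given for tested antagonists and decoys, for the 6 ligands and 8 receptors with the largest change at 0 mg/kg among those called, and for members with the smallest adjusted p with time. Members named outside this rule, with group means or tendon values, were added to account for each class. Count ratios had 0.5 added to each count and a 2-sided exact permutation test. Alternatives were other scaling (RLE or library size only), no filter, no fold threshold, DESeq2 1.42.0, fits of the compared groups only, a replicate block and leaving out each tendon.

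The members and lists were chosen with earlier results of these data known. Each tendon was taken as 1 replicate, and floors of 3 counts cover counting error only. No pair of libraries agreed within sampling noise. The steps were tested on simulated data.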

Additional observations from a re-analysis of the deposited data

Results flagged for a closer look

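For the 20 members with values in every tendon, each group of 4 or 5 tendons was examined for a tendon far from the others by Dixon's ratio at the 95% level. Of 100 such groups 8 held one, in each case the highest tendon of its group. The rate of about 1 in 20 for this ratio holds for independent, normally distributed values. Here CPM were used without a log scale and the same tendons recur across genes, so that rate does not measure chance for these groups. In 21D 0 mg/kg tendons replicate 2 stood above the others for Il1b, at 27.6 CPM with the next at 11.6 CPM, and for Il2rg, at 76.9 CPM with the next at 35.6 CPM. The log2 fold changes of these genes without that tendon are given in the report. In 21D 2 mg/kg tendons replicate 3 was the highest for Il6, at 3.38 CPM with the next at 1.39 CPM, and for Il11, at 3.26 CPM with the next at 1.94 CPM. In 21D 6 mg/kg tendons Il1rn was at 184 CPM in replicate 5 with the next at 39.9 CPM, and Il17d was at 34.4 CPM in replicate 3 with the next at 28.9 CPM. Il17d was also at 22.7 CPM in 7D 0 mg/kg replicate 2 with the next at 17.9 CPM, and Il15 was at 8.29 CPM in 7D 2 mg/kg replicate 5 with the next at 6.50 CPM.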

How the results depend on the processing

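For the comparisons of the 7D and 21D 0 mg/kg groups with control, in which single members were recomputed, every log2 fold change that was called kept its direction under RLE scaling, library size only, no filter, DESeq2, fits of the compared groups and the fits that left out 1 tendon. Library size only moved the median log2 fold change of all genes against control from 0.01 to 0.05 up to 0.51 to 0.64 without moving a count of members by over 1.5 times. With DESeq2 the number of members changed from 7 to 21 days was 10 (0 mg/kg) and 8 (2 mg/kg), and 1 member (Il34) differed between 21D 6 and 2 mg/kg. With only the groups compared it was 9 at 2 mg/kg. That fit also ended the calls at 21D 0 mg/kg of Il10ra, Il17re, Il18r1, Il18rap and Il6 (adjusted p = 0.0512 to 0.140) and that of Il6r at 7D 0 mg/kg (adjusted p = 0.0980). Of the values of single members, the adjusted p of Il34 at 21D 0 mg/kg (under 1.5-fold) went over 0.05 with RLE scaling and with DESeq2. Among values that kept their direction, library size only moved 2 over 0.05, both of Il1r1 with time, and 10 under it. Il11ra1 at 7D 0 mg/kg went under it too, with its sign changed (edgeR adjusted p = 0.0208). The fits without 1 tendon kept the direction and the side of 0.05 in 635 values. With the direction kept they moved 66 over it and 10 under it, and they changed the sign of 16. Leaving out 1 tendon gave 2 to 10 members changed with time for 0 mg/kg, 3 to 6 for 2 mg/kg and 2 to 7 for 6 mg/kg, and 15 to 24 higher members at 21D 2 mg/kg, against 24 to 26 at 7D 0 mg/kg and 20 to 25 at 21D 0 mg/kg. Members that were not called changed sign under library size only, namely Il11ra1 (0.44) and Il20rb (0.16) at 7D 0 mg/kg and Il33 (0.47), Il15ra (0.23) and Il20rb (0.39) at 21D 0 mg/kg, and Il33 did so without the filter (0.0048). Leaving out 1 tendon spread Il15ra from -0.29 to 0.70 at 7D 0 mg/kg and from -0.77 to 0.24 at 21D 0 mg/kg, Il17rd from -0.42 to 1.40 and from -0.14 to 1.67, and Il33 from -0.035 to 0.62 and from -0.43 to 0.23. At 21D 0 mg/kg Il1r2 ranged from -0.21 to 3.11 and Il20rb from -0.46 to 0.16. Log2 ratios of Il13ra2 to Il13ra1 between times ranged from -0.617 to 0.0126, those of Il18bp to Il18 at 7D 0 mg/kg from -0.469 to 0.697, and those of Il1r2 to Il1r1 from -0.553 to 0.845 at 7D 0 mg/kg and from -0.187 to 1.21 at 21D 0 mg/kg. The cause was not tested. With the replicate number as a block, 25 members were higher at 7D 6 mg/kg, and 4, 5 and 6 members changed with time at 0, 2 and 6 mg/kg. Il2rb lost its call with time at 0 mg/kg under the block (-1.54, adjusted p = 0.0531), as did Il17d at 7D 6 mg/kg, Il4i1 at 7D 2 mg/kg and 21D 2 mg/kg and Il6 at 21D 6 mg/kg against control, while Il1r2 at 7D 2 mg/kg, Il1rap at 21D 2 mg/kg, Il6st at 21D 6 mg/kg and Il1rl2 with time at 6 mg/kg were added. Deviations of same-numbered tendons had a mean correlation of 0.0073 over 76 pairs (-0.701 to 0.681), 29 of them over 0.1, and 10 of 30 tendons were closest to their own number. A mean near zero cannot decide whether same-numbered tendons share more than the number, and the labels do not say. At this depth members under 3 CPM rest on few counts, such as 0 to 10 for Il6 in control tendons.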

Other observations

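Il1rn, Il18bp and Il36b were highest in the same tendon in each of the 6 repaired groups, a pattern noticed after the values were seen and not tested. The tendons were replicate 1 at 7D 0 mg/kg, replicate 2 at 7D 2 mg/kg, replicate 1 at 7D 6 mg/kg, replicate 2 at 21D 0 mg/kg, replicate 4 at 21D 2 mg/kg and replicate 5 at 21D 6 mg/kg. In that order Il1rn was at 354, 393, 217, 500.1, 434 and 184 CPM there, with the next highest tendon at 148, 214, 73.6, 201, 366 and 39.9 CPM. Il18bp was at 65.1, 80.8, 62.8, 117, 113 and 63.9 CPM in these tendons. Il36b was at 2.50, 2.28, 3.22, 4.37, 5.28 and 2.65 CPM in them. Il10, Il18 and Il4i1 were highest in the same tendon in 3 of the 6 groups and Il1b in 2 of the 6. Replicate 5 of the 21D 6 mg/kg group was thus set off for Il1rn among tendons that lay between 16.6 and 39.9 CPM.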
